A study of Homo sapiens with 12 samples.

Results

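The proteasome subunit genes were taken as every gene in the 6 peak lists whose symbol begins with PSMA to PSMG followed by a digit. This gave 37 genes of the 10830 named in the lists, with 192 of 101848 peaks. Of these, 36 code for parts of the proteasome or for its activators, inhibitor and assembly chaperones, and PSMC3IP, which matches the symbol pattern only, codes for a meiotic recombination protein. In RIP-seq, short for RNA immunoprecipitation and sequencing, RNA pulled down with a protein is compared with input RNA. All 12 samples were from the human liver cancer line HepG2: 2 RIP samples and 2 inputs for each of METTL16, eIF3a and eIF3b. The METTL16 samples came from a stable line infected with pmiRNA1-3XFlag-METTL16, the eIF3a samples from a line with pSIN4-3XFlag-eIF3a and the eIF3b samples from a line with pSIN4-3XFlag-eIF3b, and cells were cross-linked with ultraviolet light. Each RIP sample had 1 list of peaks, stretches of RNA enriched over input, and a fold enrichment below is always that ratio as the authors calculated it.

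The proteasome degrades proteins that carry ubiquitin. Its barrel-shaped core stacks outer rings of alpha subunits, which gate entry, on inner rings of beta subunits, some of which cut peptide bonds, and a regulatory cap of ATPases and non-ATPase subunits recognises, unfolds and feeds in the substrate. Liver cells make all the constitutive subunits. METTL16 is an RNA methyltransferase known for U6 small nuclear RNA and MAT2A mRNA, and eIF3a and eIF3b are subunits of the factor that brings the small ribosomal subunit to mRNA.

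Several features of the samples bear on every value below. The tagged proteins were overexpressed, so binding by the endogenous proteins was not measured apart. The labels give Flag as the antibody of the METTL16 and eIF3b samples and eIF3a as that of the eIF3a samples, while the deposited eIF3a lists are named for Flag. The antibody behind the eIF3a peaks is therefore unsettled, and if the labels hold, antibody and protein cannot be told apart for eIF3a. The second eIF3a list stood apart on these genes: it held a peak on 6 of the 37, whereas the other 5 lists held one on 20 to 31. Of 10 liver marker genes, 9 had a peak in at least 1 list and TTR had none, and of 6 markers of blood, endothelial and connective tissue cells, PTPRC and CD79A had a peak in the first METTL16 list and PECAM1 in all 4 eIF3 lists. A peak measures enrichment and not the level of an mRNA.

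Among listed genes, the share of proteasome genes with a peak was close to that of all listed genes in the first METTL16 list, above it in the second, and below it in all 4 eIF3 lists. In METTL16 replicate 1, 20 of 37 genes (54.1%) had a peak, against 53.8% of all 10830. Replicate 2 of METTL16 held a peak on 31 (83.8%), against 58.5%. It held 12 genes that replicate 1 did not, 6 of them of the core particle (PSMA3, PSMA5, PSMA6, PSMB4, PSMB6 and PSMB7), and lacked PSME4, which replicate 1 held. The first eIF3a list had 22 genes (59.5%), against 75.4%, and the second 6 of 37, against 48.3%. In the eIF3b lists the number was 21 (56.8%) in replicate 1, against 74.5%, and 22 (59.5%) in replicate 2, against 69.9%. The 2 eIF3b lists lay close to each other, while the lists within METTL16 and within eIF3a differed by 11 and 16 genes in their counts.

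**Figure D1:**
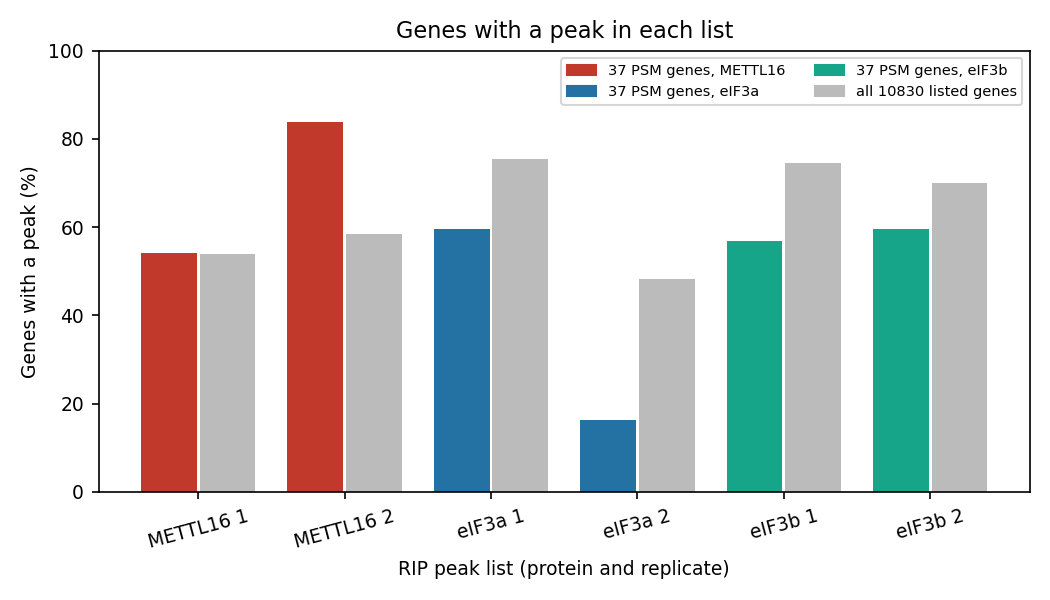
Percentage of genes with at least 1 peak in each of the 6 RIP lists, for the 37 PSM genes (coloured by protein) and all 10830 listed genes (grey). The PSM bar stands above the grey bar by more than 20 points in METTL16 replicate 2 and below it in every eIF3a and eIF3b list.

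A gene with a peak in both replicates of a protein was called bound, and the peaks need not share a base. The replicates shared no base on PSMA1, PSMC5 and PSMD2 for METTL16, nor on PSMD11 and PSMC3IP for eIF3b. METTL16 bound 19 of the 37 genes (51.4%), beside 42.6% of all listed genes. eIF3a bound 6 of 37, beside 42.4%, and eIF3b bound 17 (45.9%), beside 60.0%. The eIF3a count rests on its second list, since without it 22 genes had an eIF3a peak. Peaks in all 6 lists were found on PSMA7, PSMB2, PSMD3, PSMD12, PSMD13 and PSMF1, 6 of the 37 genes, against 25.2% of all listed genes. Another 6 genes (PSMC3, PSMD1, PSMD7, PSME2, PSME3 and PSMG1) had a peak in every list except the second of eIF3a, against 9.32% of all listed genes. Against all annotated protein coding genes, 36 of 48 proteasome genes (75.0%) had a peak in some list, beside 53.5%. This denominator turns the comparison for 3 of the 4 eIF3 lists. Of the 48 genes, 41.7% and 64.6% had a METTL16 peak, 43.8% and 12.5% an eIF3a peak, and 41.7% and 43.8% an eIF3b peak. Of all annotated protein coding genes it was 27.8% and 30.1%, 38.9% and 24.9%, and 38.4% and 36.2%, so that only eIF3a replicate 2 was below.

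Most of these messages were short, and the lists differed with length. The median canonical transcript was 1540 bases for the 37 genes and 3461 for all listed genes, and 25 of the 37 fell among the shortest genes when listed genes were divided into 3 equal classes of length. Within that class, METTL16 replicate 2 had a peak on 22 of the 25 (88.0%) and on 61.3% of all genes, and METTL16 replicate 1 on 13 (52.0%) and on 48.3%. The eIF3a lists had a peak on 13 and 3 of the 25, against 61.3% and 25.7% of all genes of that length. For eIF3b the shares were 52.0% and 56.0%, against 66.1% and 55.5%. Among genes of that class, the second eIF3b list was thus level with the background and the other 3 eIF3 lists lay below it. With all 37 genes set against genes of the same length classes, the background was 50.6% and 60.4% for METTL16, 67.5% and 34.8% for eIF3a, and 69.7% and 61.8% for eIF3b, and the 4 eIF3 lists stayed below it.

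By role, the alpha and beta rings gained the most genes from METTL16 replicate 1 to replicate 2, by a narrow margin and in count only. The base ATPases went from 2 to 4 of 6 annotated genes, the assembly chaperones from 1 to 3 of 7 and the non-ATPase subunits from 7 to 9 of 11. The alpha ring had 5 of its 8 annotated genes in the lists. PSMA1, PSMA3, PSMA5, PSMA6 and PSMA7 all had a peak in METTL16 replicate 2, and 2 of them had one in METTL16 replicate 1. No peak was listed on PSMA2, PSMA4 or PSMA8, the last of which is a testis form. The beta ring had 7 of 11, of which 6 had a peak in METTL16 replicate 2 and 3 in replicate 1. No peak was listed on PSMB5, PSMB8, PSMB9 or PSMB11: PSMB5 carries a catalytic site of the constitutive core, PSMB8 and PSMB9 replace catalytic subunits in the immunoproteasome, and PSMB11 is the thymus form.

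**Figure D2:**
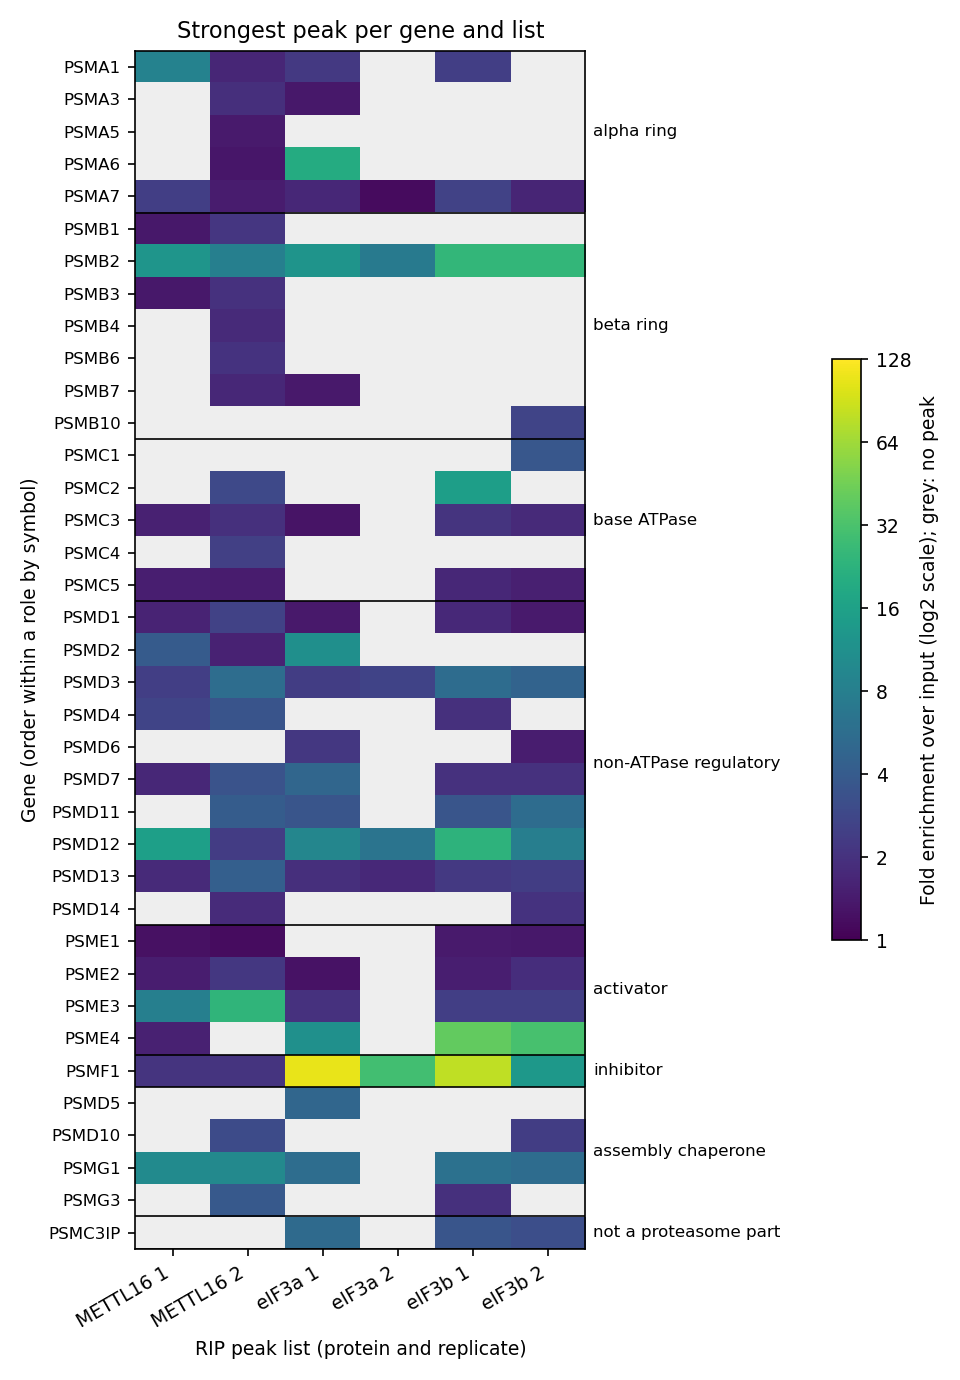
Fold enrichment over input of the strongest peak of each of the 37 genes (rows, grouped by role) in each of the 6 RIP lists (columns), on a log2 colour scale, with grey for no peak. Rows filled in all 6 columns are PSMA7, PSMB2, PSMD3, PSMD12, PSMD13 and PSMF1, and the brightest cells are PSMF1 in eIF3a replicate 1 (109) and eIF3b replicate 1 (81.0).

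Only METTL16 lists held PSMB1 and PSMB3, structural subunits of the beta ring. A peak in both METTL16 lists and in no other was seen on these 2 of the 37 genes (5.41%), beside 0.905% of all listed genes. Both were weak. PSMB1 had 1.38-fold in replicate 1 over 90 bases and 2.16-fold in replicate 2 over 326 bases, which is the 1.06 and 13.4 percentile of each list's genes by strongest peak. PSMB3 had 1.38-fold over 118 bases and 2.01-fold over 561 bases of 5 exons. In both genes the narrow peak of replicate 1 was coding and lay inside the wide peak of replicate 2, which in PSMB1 ran on over the stop codon. These stretches are printed from the genome (hg38), spliced and on the strand of the gene, with the bases under a peak in both METTL16 lists in capitals. PSMB1 (chr6:170535233-170537270, minus strand) has its capitals at coding bases 564 to 653 of 726, and PSMB3 (chr17:38753180-38755935, plus strand) at coding bases 64 to 181 of 618.
PSMB1: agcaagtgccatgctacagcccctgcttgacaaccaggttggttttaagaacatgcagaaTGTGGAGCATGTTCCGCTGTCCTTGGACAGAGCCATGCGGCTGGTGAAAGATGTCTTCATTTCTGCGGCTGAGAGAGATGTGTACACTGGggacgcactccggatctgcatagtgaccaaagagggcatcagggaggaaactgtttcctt
PSMB3: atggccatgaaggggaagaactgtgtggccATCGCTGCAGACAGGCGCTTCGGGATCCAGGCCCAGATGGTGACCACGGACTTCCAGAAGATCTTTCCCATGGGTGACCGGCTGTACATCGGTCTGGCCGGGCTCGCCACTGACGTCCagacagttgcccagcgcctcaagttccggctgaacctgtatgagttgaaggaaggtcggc

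Some genes were in a single list. PSMA5, PSMB4, PSMB6 and PSMC4 were in METTL16 replicate 2 alone (10.8% of the 37, beside 3.80% of all listed genes), at 1.42-, 1.78-, 2.02- and 2.50-fold. PSMB6 carries a catalytic site and PSMC4 is an ATPase of the base. PSMB10, an immunoproteasome subunit, and PSMC1, an ATPase, were in eIF3b replicate 2 alone at 2.69- and 3.74-fold. PSMD5, a chaperone of the base, was in eIF3a replicate 1 alone at 4.96-fold. The PSMB10 peak overlapped an exon of another protein coding gene of the same strand, so its gene is uncertain. Of the 192 peaks, 14 overlapped an exon of another gene. For 4 of them, on PSMA1, PSMA6 and PSMB10, that gene was protein coding and on the same strand, and for 10 it was on the opposite strand. Peaks in eIF3 lists and no METTL16 list were seen on 5 genes (PSMB10, PSMC1, PSMC3IP, PSMD5 and PSMD6), or 13.5%, beside 30.2% of all listed genes.

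PSMA7, a subunit of the alpha ring, was in all 6 lists at low enrichment. Its strongest peak was 2.47- and 1.44-fold for METTL16, 1.73- and 1.16-fold for eIF3a, and 2.60- and 1.65-fold for eIF3b (replicates 1 and 2). These peaks all lay on the first 320 bases of the 962-base transcript, and 5 of them covered the start codon, the exception being eIF3a replicate 2. Only 1 base was common to all 6 lists.

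Another alpha ring gene, PSMA6, had a peak of 19.8-fold over 89 bases in eIF3a replicate 1 and one of 1.35-fold over 59 bases in METTL16 replicate 2. The strong peak lay mostly outside the annotated exons of PSMA6 and on an exon of a neighbouring protein coding gene of the same strand, so it could not be placed, and its gene is uncertain. The weak peak was coding, but it also overlapped an exon of the neighbouring gene, so its gene is uncertain as well. PSMA1 was strongest in METTL16 replicate 1, at 8.61-fold, in the 5′ UTR of a non-canonical transcript.

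The ATPases of the base, PSMC1 to PSMC5, had 14 of 15 peaks centred in the coding sequence, and PSMC6 had none. PSMC3 had a peak in 5 lists, at 1.56- and 1.97-fold for METTL16, 1.28-fold for eIF3a and 2.06- and 1.79-fold for eIF3b. PSMC5 had one in both METTL16 and both eIF3b lists, between 1.45- and 1.72-fold. The exception in position was PSMC2, with a 3′ UTR peak of 15.1-fold over 91 bases in eIF3b replicate 1 and a coding peak of 2.91-fold over 210 bases in METTL16 replicate 2. These 2 peaks shared no base. PSMC1 has 13 annotated pseudogenes, and 15 of the 37 genes have at least 1, so reads of these genes may be shared with copies. How the study assigned such reads is not given in the sources used here.

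Among the non-ATPase subunits of the regulatory particle, 10 of 11 genes were in the lists, all but PSMD8, and 7 were bound by METTL16, 3 by eIF3a and 6 by eIF3b, where the shares of all listed genes were 42.6%, 42.4% and 60.0%. PSMD3 and PSMD13, both subunits of the lid, were in all 6 lists. The strongest PSMD3 peak was 2.47- and 5.64-fold for METTL16, 2.42- and 2.67-fold for eIF3a, and 5.52- and 4.73-fold for eIF3b. PSMD13 had 1.79- and 4.33-fold for METTL16, 1.91- and 1.76-fold for eIF3a, and 2.23- and 2.43-fold for eIF3b. In each gene a short stretch of the 3′ UTR was under a peak in every list: 60 bases of PSMD3 (transcript bases 1819 to 1878) and 90 bases of PSMD13 (1381 to 1470). PSMD3 also had a peak over its start codon in 5 lists, between 1.30- and 5.64-fold. The middle 30 bases of each shared stretch are printed in capitals, since they lie under a peak of all 3 proteins in both replicates, for PSMD3 at chr17:39997646-39997675 (plus strand) and for PSMD13 at chr11:252806-252835 (plus strand).
PSMD3: CCCAGGGCACTGTCCCCATTTTCCCACACA
PSMD13: TGCAGAGGGTGGGGGTCTCAGGGTCTTAGG

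PSMD1, a scaffold of the base, and PSMD4, a ubiquitin receptor, carried peaks at the same coding position in different lists. PSMD1 had 1.63- and 2.61-fold for METTL16, 1.40-fold for eIF3a replicate 1 and 1.76- and 1.43-fold for eIF3b, and 30 bases were common to these 5 peaks. PSMD4 had 2.71- and 3.52-fold for METTL16 and 1.95-fold for eIF3b replicate 1, with 208 bases in common. The PSMD4 peaks of METTL16 replicate 1 and eIF3b replicate 1 had the same ends. The sequences are shown with the common bases in capitals, PSMD1 on chr2:231165283-231166016 (plus strand, capitals at coding bases 2625 to 2654 of 2862) and PSMD4 on chr1:151265603-151266538 (plus strand, coding bases 678 to 885 of 1134). They were singled out after their values were seen.
PSMD1: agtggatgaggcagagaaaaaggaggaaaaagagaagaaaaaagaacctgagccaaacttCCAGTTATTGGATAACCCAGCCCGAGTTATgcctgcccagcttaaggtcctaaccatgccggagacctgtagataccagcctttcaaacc
PSMD4: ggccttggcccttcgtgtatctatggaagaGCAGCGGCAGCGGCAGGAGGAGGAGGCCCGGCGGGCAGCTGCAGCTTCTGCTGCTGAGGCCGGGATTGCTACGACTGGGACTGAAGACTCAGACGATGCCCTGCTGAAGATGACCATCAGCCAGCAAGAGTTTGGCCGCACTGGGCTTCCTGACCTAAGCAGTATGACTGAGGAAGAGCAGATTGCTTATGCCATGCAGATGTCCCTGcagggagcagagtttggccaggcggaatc

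PSMB2 and PSMD12 each carried 2 sites in the 3′ UTR that recurred in every list or in all but METTL16 replicate 2. PSMB2, a beta ring subunit with a 3′ UTR of 3726 bases in a transcript of 4426, had its strongest peak at 12.6- and 8.19-fold for METTL16, 12.4- and 7.34-fold for eIF3a, and 24.7- and 25.0-fold for eIF3b. All 18 of its peaks were in the 3′ UTR. A first site, between transcript bases 1145 and 1532, was enriched 8.58- and 8.19-fold for METTL16, 8.93- and 5.59-fold for eIF3a, and 11.8- and 6.57-fold for eIF3b, with 270 bases common to all 6 lists. A second, between bases 2577 and 2964, was found in every list except METTL16 replicate 2. There the enrichment was 12.6-fold for METTL16 replicate 1, 7.44- and 7.34-fold for eIF3a, and 24.7- and 25.0-fold for eIF3b. A weaker site, between bases 1682 and 1980, recurred in fewer lists. Its peaks were 3.09-fold in METTL16 replicate 1, 2.79-fold in eIF3a replicate 1, and 2.92- and 4.40-fold for eIF3b.

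PSMD12, a lid subunit with a 3′ UTR of 2927 bases in a transcript of 4356, showed a like arrangement. Its strongest peak was 15.5- and 2.38-fold for METTL16, 9.30- and 6.43-fold for eIF3a, and 23.1- and 7.95-fold for eIF3b. A site between transcript bases 2833 and 3221 was in all 6 lists, with 60 bases common to them, and was enriched 2.73- and 2.38-fold for METTL16, 9.30- and 3.87-fold for eIF3a, and 8.37- and 7.95-fold for eIF3b. A site between bases 3400 and 3878 was in all lists but METTL16 replicate 2, at 15.5-fold for METTL16 replicate 1, 9.19- and 6.43-fold for eIF3a, and 23.1- and 6.97-fold for eIF3b. In both genes METTL16 replicate 2 held the upstream site alone.

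The first and second PSMB2 sites and the 2 PSMD12 sites share a sequence feature. Each holds pieces of the Alu repeat, a primate element present in very many copies across the genome. The pieces were on the strand of the gene at these 2 PSMB2 sites and at the upstream PSMD12 site. At the downstream PSMD12 site they were on the opposite strand. Peaks were searched on both strands for 6 pieces of 9 bases from the Alu consensus (TAATCCCAG, TCCCAGCTA, GGGAGGCTG, CAGTGAGCC, GCACTCCAG and CCAGCCTGG), a search added after the printed bases were seen. At least 2 different pieces on 1 strand were found in 22 of the 192 peaks, 11 on PSMB2 and 11 on PSMD12, and in no peak of the other 35 genes. No peak of the weaker PSMB2 site held more than 1 piece. The 22 peaks were 4, 2, 4, 4, 4 and 4 in the lists of METTL16, eIF3a and eIF3b in order. That was 4.88% to 28.6% of the peaks on proteasome genes, beside 2.98% to 5.10% of all peaks. Among 3′ UTR peaks alone it was 22.2% to 36.4% on proteasome genes, beside 10.2% to 14.7% over all genes. Across all genes, peaks with Alu pieces had a median enrichment of 4.90- to 11.7-fold per list and other peaks one of 2.66- to 3.34-fold. How reads that map to many copies were treated is not given in the sources used here, and the part of the repeat in these enrichments was not tested. The middle 30 bases of the PSMB2 stretch common to all lists are printed with the pieces in capitals (chr1:35602614-35602643, minus strand).
PSMB2: cacccctagTCCCAGCTActgGGGAGGCTG

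**Figure D3:**
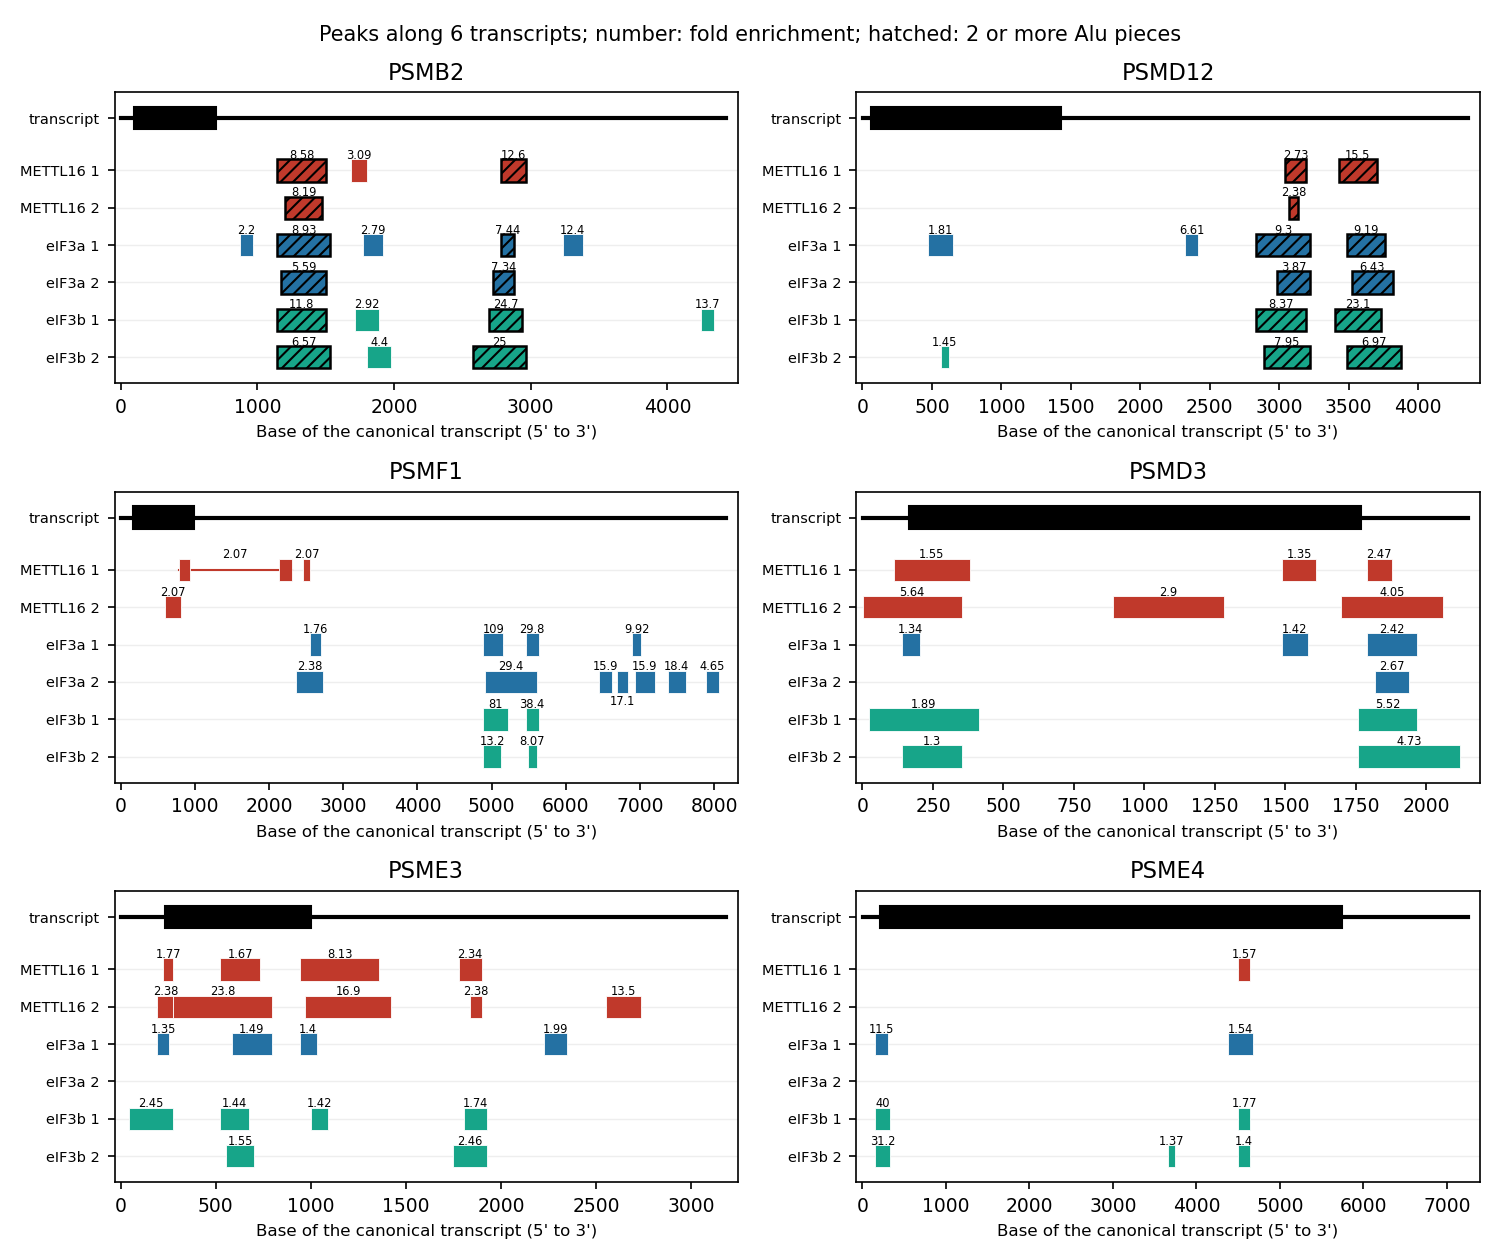
Peaks along the canonical transcripts of 6 genes (x axis, transcript bases; black box, coding sequence), with a row for each RIP list and the fold enrichment beside each peak. Hatched peaks hold at least 2 Alu pieces and lie on PSMB2 and PSMD12, the strongest eIF3 peaks of PSMF1 lie far downstream of its METTL16 peaks, and the start-region peaks of PSME4 are in eIF3 lists alone.

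PSMF1, which codes for a proteasome inhibitor, was in all 6 lists, with weak METTL16 peaks and with the strongest proteasome gene peak of both eIF3a lists and of eIF3b replicate 1. The strongest peak was 2.07- and 2.07-fold for METTL16, 109- and 29.4-fold for eIF3a, and 81.0- and 13.2-fold for eIF3b. The eIF3a value in replicate 1 lay at the 99.9 percentile of that list's genes, and the METTL16 values at the 13.0 and 11.8 percentiles of theirs. The peaks were also at different places. METTL16 peaks lay between transcript bases 601 and 2548, in the coding sequence and in the first part of a 3′ UTR of 7166 bases. A peak of METTL16 replicate 1 joined blocks on either side of the stop codon and did not cover it. The strongest eIF3 peaks began between bases 4886 and 4916 in all 4 lists. No base of PSMF1 was common to the 6 lists, and 91 bases were under both a METTL16 and an eIF3 peak, which is 15.1% of its METTL16 bases and 4.20% of its eIF3 bases. The eIF3a replicate 2 list held 7 separate peaks on this gene and the widest of any proteasome gene, 691 bases at 29.4-fold. None of the PSMF1 peaks reached 2 Alu pieces.

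The activators bind the ends of the core particle. PSME4, a large activator of its own family, had a peak over its start codon in eIF3a replicate 1 at 11.5-fold, in eIF3b replicate 1 at 40.0-fold and in eIF3b replicate 2 at 31.2-fold. It was not in the METTL16 lists or the second eIF3a list. The eIF3b values were at the 98.1 and 98.6 percentiles of their lists. METTL16 replicate 1 had only a coding peak of 1.57-fold over 150 bases, and the same 150 bases were under a weak peak (1.40- to 1.77-fold) in each of the 3 eIF3 lists with PSME4. An exon of ACYP2 on the opposite strand overlaps the start-region peaks. The library kit keeps strand, and whether the peak calling used it is not given in the sources used here.

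PSMG1, a chaperone of the alpha ring, also had its peaks over the start codon, but in 5 lists and for all 3 proteins. The values were 10.2- and 9.87-fold for METTL16, 5.63-fold for eIF3a replicate 1 and 6.07- and 5.52-fold for eIF3b, so the METTL16 lists were the higher. The peaks shared 179 bases. The coding part of both start regions is printed from the first base of the start codon, with the bases under a peak in every list that had one there in capitals. PSMG1 (chr21:39181875-39183385, minus strand) spans 2 exons, and PSME4 (chr2:53970660-53970784, minus strand) lies in 1. The GC content of the printed bases was 68.1% for PSMG1 and 74.4% for PSME4, beside means of 53.1% to 60.8% over all peaks of a list. Those means take in peaks of every region, and a comparison with start regions of other genes was not made. PSMG1 was singled out after its values were seen.
PSMG1: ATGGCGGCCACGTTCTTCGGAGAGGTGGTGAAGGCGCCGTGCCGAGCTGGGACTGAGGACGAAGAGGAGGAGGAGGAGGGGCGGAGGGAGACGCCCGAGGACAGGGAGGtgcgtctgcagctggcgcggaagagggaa
PSME4: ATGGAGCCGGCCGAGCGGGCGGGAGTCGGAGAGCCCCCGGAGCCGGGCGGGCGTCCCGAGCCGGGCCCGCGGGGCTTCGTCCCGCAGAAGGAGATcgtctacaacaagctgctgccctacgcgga

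Of the 7 annotated assembly chaperones, 4 were in the lists, and no peak was listed on PSMD9, PSMG2 or PSMG4. PSMG3 had 3.89-fold in METTL16 replicate 2 and 1.95-fold in eIF3b replicate 1, with 240 bases in common. PSMD10, the oncoprotein gankyrin, had 3.04-fold in METTL16 replicate 2 and 2.40-fold in eIF3b replicate 2, with 149 bases in common. PSMC3IP, which is no proteasome gene, had coding peaks of 5.37-fold in eIF3a replicate 1 and 3.60- and 3.18-fold for eIF3b, and none for METTL16.

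PSME3, the nuclear activator, was in 5 lists with 19 peaks, the most of any proteasome gene. Its strongest peak was 8.13- and 23.8-fold for METTL16, 1.99-fold for eIF3a replicate 1, and 2.45- and 2.46-fold for eIF3b. Around the stop codon and the start of the 3′ UTR, METTL16 had 8.13-fold over 419 bases and 16.9-fold over 449 bases. At the same place eIF3a replicate 1 had 1.40-fold over 91 bases and eIF3b replicate 1 had 1.42-fold over 90 bases. METTL16 replicate 2 had a coding peak of 23.8-fold over 599 bases, where the other 4 lists had coding peaks of 1.44- to 1.67-fold. It alone had a peak at transcript bases 2555 to 2734 in the 3′ UTR, of 13.5-fold over 180 bases. PSME3 thus had its high values in the METTL16 lists, and PSME4 and PSMF1 had theirs in eIF3 lists.

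The motif ACAGAGA, part of the METTL16 target in U6 RNA, was searched on the transcript strand of every peak. It was in 5 of the 192 peaks, 4 on PSME3 and 1 on PSMC3IP. In the 6 lists it was in 3.27% to 5.36% of all peaks. The PSME3 match lay in a 3′ UTR peak of both METTL16 lists (2.34- and 2.38-fold) and both eIF3b lists (1.74- and 2.46-fold), at chr17:42842406-42842435 (plus strand), printed with the motif in capitals. It was not in the stop codon peak, the stronger of the 2 METTL16 peaks of that region.
PSME3: gttggtggagaACAGAGAgatgagaagcag

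PSME1 and PSME2, whose products form the interferon-inducible activator together, had only weak enrichment, with a coding stretch common to all lists that held each gene. PSME1 had 1.25- and 1.17-fold for METTL16 and 1.43- and 1.37-fold for eIF3b, and 60 bases were common to the 4 peaks. PSME2 had its strongest peak at 1.47- and 2.19-fold for METTL16, 1.26-fold for eIF3a replicate 1, and 1.49- and 1.90-fold for eIF3b, with 89 bases common to the 5 lists. The 1.90-fold peak was in the 5′ UTR, and over the common bases eIF3b replicate 2 had 1.42-fold. The positions were not equivalent, at coding bases 254 to 313 of 750 in PSME1 and 380 to 468 of 720 in PSME2. The sequences are shown with the common bases in capitals, PSME1 on chr14:24137379-24137750 (plus strand) and PSME2 on chr14:24143999-24145098 (minus strand). These genes were likewise singled out after their values were seen.
PSME1: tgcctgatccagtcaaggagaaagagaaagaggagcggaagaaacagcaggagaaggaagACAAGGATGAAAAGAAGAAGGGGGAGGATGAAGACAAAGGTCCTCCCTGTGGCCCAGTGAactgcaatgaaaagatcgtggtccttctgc
PSME2: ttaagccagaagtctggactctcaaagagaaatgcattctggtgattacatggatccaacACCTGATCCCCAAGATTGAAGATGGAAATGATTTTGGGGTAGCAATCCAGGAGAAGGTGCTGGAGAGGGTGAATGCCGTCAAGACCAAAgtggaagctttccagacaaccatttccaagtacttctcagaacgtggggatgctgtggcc

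Over all 192 peaks, 100 were centred in coding sequence, 76 in the 3′ UTR and 15 in the 5′ UTR, and 1 could not be placed. Coding peaks came from 33 genes. The 3′ UTR peaks came from 10 genes, and 69 of the 76 from PSMB2, PSMF1, PSMD12, PSME3, PSMD13 and PSMD3. Coding peaks made up 56.7% and 80.5% of the placed peaks in the METTL16 lists, 41.0% and 7.14% in the eIF3a lists, and 45.5% and 52.9% in the eIF3b lists. For all peaks of the same lists the coding shares were 61.1% and 68.8%, 56.9% and 58.1%, and 61.2% and 57.8%. The proteasome peaks were thus less often coding than all peaks in every list except METTL16 replicate 2, as a description of these counts.

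The coding share averaged 68.6% ± 16.8 in the METTL16 lists, 24.1% ± 24.0 in the eIF3a lists and 49.2% ± 5.29 in the eIF3b lists (SD, n = 2 lists each). The lists of METTL16 did not overlap those of eIF3a or eIF3b, and those of eIF3a lay below those of eIF3b. METTL16 minus eIF3a was 44.5 percentage points, METTL16 minus eIF3b 19.4 and eIF3a minus eIF3b -25.1. Each gave p = 0.333 in an exact two-sided permutation test over the 4 lists, adjusted p = 1.00 over the 9 differences tested, and 0.33 is the smallest p that 2 lists against 2 allow. The share of genes with a peak overlapped between proteins: METTL16 minus eIF3a was 31.1 points (p = 0.667, exact permutation test), METTL16 minus eIF3b 10.8 (p = 1.00) and eIF3a minus eIF3b -20.3 (p = 1.00). Without eIF3a replicate 2, METTL16 minus eIF3a fell to 27.6 points in coding share and 9.46 in the share of genes, and eIF3a minus eIF3b became -8.17 and 1.35. Without METTL16 replicate 2, METTL16 minus eIF3b was 7.47 and -4.05 points.

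**Figure D4:**
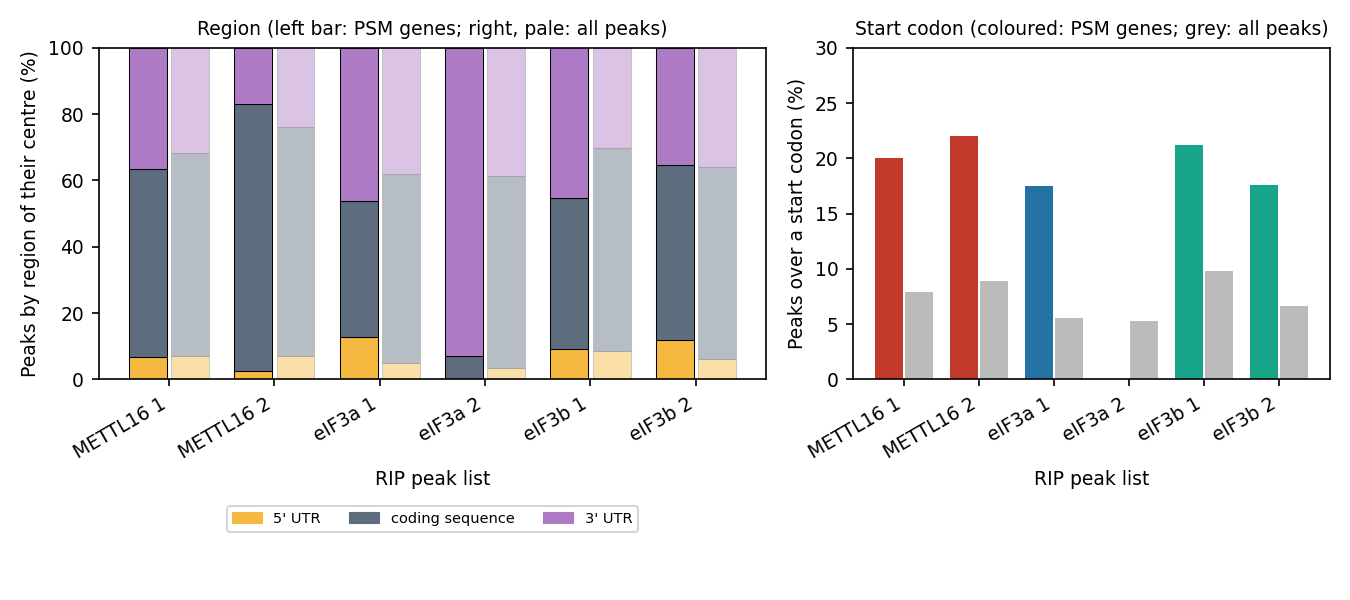
Left, region of the peak centre as a percentage of placed peaks in each RIP list, for PSM genes (left bars) and all peaks (pale right bars). Right, percentage of peaks that cover a start codon: 17.5% to 22.0% on PSM genes in 5 lists and 0 in eIF3a replicate 2, with all peaks (grey) between 5.27% and 9.81%.

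Start codons were covered by a larger share of peaks than in the list as a whole in 5 lists, and by none in eIF3a replicate 2. A peak lay over the start codon of the canonical transcript in 6 of 30 METTL16 peaks of replicate 1 (20.0%) and 9 of 41 of replicate 2 (22.0%). For eIF3a it was 7 of 40 (17.5%) and 0 of 14, and for eIF3b 7 of 33 (21.2%) and 6 of 34 (17.6%). Over all peaks the shares were 7.93%, 8.88%, 5.58%, 5.27%, 9.81% and 6.64%. The 35 such peaks came from 13 genes, among them PSMA7, PSMD3, PSMD7, PSME3 and PSMG1, each of which had one for all 3 proteins. A stop codon lay between the first and last base of 15 peaks of 9 genes. That was 5.00% to 11.8% of the peaks of 5 lists and none of eIF3a replicate 2, against 5.63% to 9.42% of all peaks. All peaks were counted in the same way. The PSMF1 peak among the 15 joined blocks on either side of the stop codon and did not cover it. A short message leaves few places that are far from a start codon, and the start codon share was not compared at matched length.

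Median enrichment was lower for coding peaks than for 3′ UTR peaks in every list, although the PSME4 and PSME3 coding peaks described above were among the strongest. The median enrichment of coding peaks was 1.57- and 2.07-fold for METTL16, 1.46- and 1.16-fold for eIF3a (the last from 1 peak) and 1.89- and 1.54-fold for eIF3b, below the 2.64- to 3.13-fold of all coding peaks in every list. For 3′ UTR peaks it was 2.73- and 4.33-fold for METTL16, 5.79- and 6.43-fold for eIF3a, and 8.37- and 6.06-fold for eIF3b, above the 2.82- to 3.97-fold of all 3′ UTR peaks in every list but METTL16 replicate 1. Without the peaks that hold Alu pieces these medians were 2.34- and 4.33-fold, 3.19- and 15.9-fold, and 3.57- and 4.57-fold. Thus eIF3a replicate 1 fell below its 3.28-fold for all 3′ UTR peaks and eIF3b replicate 1 was level with its 3.57-fold. Of the 13 peaks of eIF3a replicate 2 in the 3′ UTR, 4 held Alu pieces and 7 were on PSMF1. Its 15.9-fold is therefore mostly that of 1 gene. At 10-fold or more there were 28 peaks of 9 genes: 21 in the 3′ UTR, 5 coding, 1 in the 5′ UTR and the unplaced PSMA6 peak, and 6 of the 28 held Alu pieces. The share of all peaks at that fold was not calculated, so whether these counts are usual is unknown. A higher fold did not always come with a smaller deposited p-value. In eIF3b replicate 1 the 13.7-fold PSMB2 peak had a larger one than the 11.8-fold peak of that gene. In the same list the 40.0-fold PSME4 peak had a smaller one than the 1.77-fold PSME4 peak. Median fold over all proteasome peaks was 1.93, 2.38, 2.33, 6.01, 2.45 and 2.22 in the 6 lists in the same order, against 3.09, 3.40, 2.98, 2.73, 3.20 and 2.94 for all peaks.

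Peak widths ranged from 59 to 691 exonic bases. The median was 150 and 238 bases in the METTL16 lists, 135.5 and 210.5 in the eIF3a lists, and 180 and 179.5 in the eIF3b lists. Over all peaks it was 180 and 180, 180 and 210, and 210 and 181. Averaged over replicates, the medians were 194 ± 62.2 bases for METTL16, 173 ± 53.0 for eIF3a and 179.75 ± 0.354 for eIF3b (SD, n = 2 lists), and the lists of the 3 proteins overlapped. The differences were 21.0 bases for METTL16 minus eIF3a (p = 0.667, exact permutation test), 14.25 for METTL16 minus eIF3b (p = 1.00) and -6.75 for eIF3a minus eIF3b (p = 1.00).

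The widest peak in each list was on a small set of genes. It was on PSME3 (419 bases) and PSMD13 (685 bases over 4 exons) for METTL16, on PSMD12 (389) and PSMF1 (691) for eIF3a, and on PSMD3 (390) and PSMD12 (389) for eIF3b. METTL16 replicate 2 had the most peaks that ran across exon junctions, 32 of 41 (78.0%), against 12 of 30 (40.0%) in METTL16 replicate 1, 10 of 40 (25.0%) and 1 of 14 (7.14%) for eIF3a, and 14 of 33 (42.4%) and 13 of 34 (38.2%) for eIF3b. Over all peaks the shares were 37.9% to 45.7%. In METTL16 replicate 2 a peak on PSME2 ran over 622 bases and 10 exons, and 1 on PSME3 over 599 bases and 9 exons. METTL16 replicate 2 therefore differed from its replicate in number, width and exon span of the peaks on these genes.

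**Figure D5:**
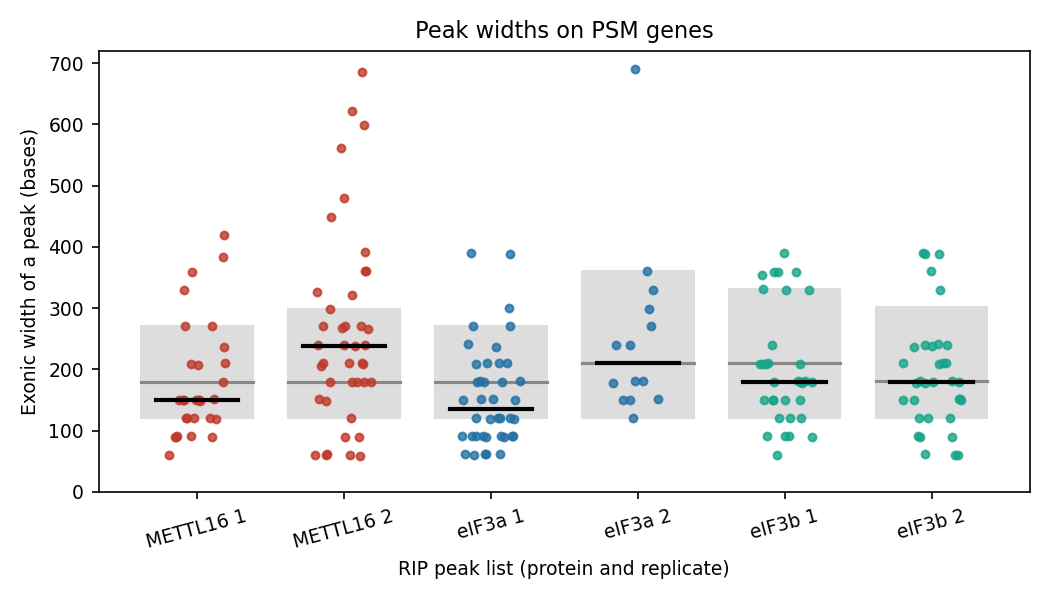
Exonic width in bases of each peak on PSM genes (points) in the 6 RIP lists, with the median of those peaks (black line), and the median (grey line) and middle range from the 25th to the 75th percentile (grey box) of all peaks of the list. METTL16 replicate 2 has its black line above the grey line, at 238 against 180 bases, and eIF3a replicate 1 below it, at 135.5 against 180.

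Of 26 genes with both METTL16 and eIF3 peaks, 22 had at least 1 base under both, and 4 (PSMA6, PSMB7, PSMC2 and PSMD14) had none. This share by gene was not calculated for all listed genes, so whether it is usual is unknown. On genes present in both lists, 22 of 25 peaks of METTL16 replicate 1 (88.0%) overlapped a peak of eIF3a replicate 1, beside 72.5% of all its peaks on shared genes, and 23 of 27 (85.2%) overlapped eIF3b replicate 1, beside 86.0%. Peaks of METTL16 replicate 2 overlapped those lists in 15 of 26 (57.7%, beside 64.2%) and 18 of 27 (66.7%, beside 76.1%). The replicates of METTL16 overlapped each other in 20 of 29 peaks of replicate 1 (69.0%, beside 64.6%). With the second replicates of eIF3a and eIF3b, METTL16 replicate 1 overlapped in 8 of 12 (66.7%, beside 62.1%) and 19 of 25 (76.0%, beside 76.2%). Shares on proteasome genes were thus above those of all genes in some pairs of lists and below in others, and these counts have no test.

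Other genes of the proteasome pathway were checked from a list of 30 (ubiquitin-activating enzymes, polyubiquitin genes, shuttle factors, deubiquitinases and regulators of proteasome assembly or transcription). It also holds ADRM1 and SEM1, regulatory particle subunits that the symbol pattern does not match, with a peak in 4 and 5 lists. Of the 30, 25 (83.3%) had a peak in some list, beside 53.5% of annotated protein coding genes. A peak in all 6 lists was seen on 6 (20.0%), beside 25.2% of all listed genes. METTL16 bound 13 (43.3%), eIF3a 11 (36.7%) and eIF3b 18 (60.0%), beside 42.6%, 42.4% and 60.0% of all listed genes. That set leaves out genes with no peak. By list, METTL16 had a peak on 17 and 19 of the 30 (56.7% and 63.3%), beside 53.8% and 58.5% of all listed genes. For eIF3a it was 20 and 11 (66.7% and 36.7%), beside 75.4% and 48.3%. For eIF3b it was 20 and 21 (66.7% and 70.0%), beside 74.5% and 69.9%. MIDN, which carries proteins to the proteasome without ubiquitin, had 11.1- and 12.3-fold for METTL16, 7.69- and 6.12-fold for eIF3a and 12.8- and 6.03-fold for eIF3b. AKIRIN2, which takes proteasomes into the nucleus, had 4.92- and 4.13-fold, 3.31- and 3.99-fold, and 13.5- and 7.91-fold. The other 4 in all lists were the shuttle factors RAD23B and UBQLN1, the VCP cofactor NPLOC4 and ZFAND5, between 1.44- and 4.64-fold. No peak was listed on POMP, the core assembly chaperone, nor on NFE2L2, DDI1, NGLY1 or UFD1.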

How the data were processed

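RIP-seq of HepG2 lines was analysed from 6 peak lists, 1 per RIP sample. Reads had been aligned to GRCh38 (STAR) and peaks called against input by exomePeak with its default settings, and per the study's methods there were 2 biological replicates. Versions, the annotation and the pairing of inputs are not given in the sources used here. The authors deposited, for each peak, its exonic blocks, a fold enrichment (a ratio), a p-value and log10 scores, and the largest deposited p-value was 0.01. Read depth is unknown, so no counting interval is given.

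Peaks were placed on GENCODE release 44 by their centre, canonical transcript first, where at least 50% of bases were exonic in the named gene (99.2% to 99.5% of peaks per list). Of 10830 names, 10314 matched a current symbol, 464 an older one and 52 none. Width is the sum of blocks, and an overlap is at least 1 base. Proteins were compared by exact two-sided permutation over lists with Benjamini-Hochberg adjustment (Python 3.11.15, numpy 2.4.6, pandas 2.3.3), and placement was tested on simulated data. Sequences were read from hg38.

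The members and lists were chosen with earlier results of these data known, and the Alu pieces and their alternatives after seeing the data. Full values were given for genes in all 6 lists, the 5 with the highest median of strongest folds in at least 2 lists (PSME4, PSMF1, PSMB2, PSMA6 and PSMC2), genes with a peak in both lists of 1 protein and no other list, genes in 1 list (name and list) and the widest peak per list.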

Additional observations from a re-analysis of the deposited data

How the results depend on the processing

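Counts of bound genes depended on the call. With a peak in either replicate they were 32 for METTL16, 22 for eIF3a and 26 for eIF3b. With a fold of at least 4 they fell to 3, 3 and 6, and with the 5000 peaks of smallest p per list to 7, 3 and 5. Leaving out each replicate in turn gave 20 to 31 for METTL16, 6 to 22 for eIF3a and 21 to 22 for eIF3b. The mean coding share with a fold of at least 4 was 36.5% for METTL16 and 18.2% for eIF3b. For eIF3b it was 55.9% without peaks with Alu pieces, an alternative added after the data were seen, and 41.5% by share of peak bases. Leaving out each replicate gave coding shares of 56.7% to 80.5% for METTL16, 7.14% to 41.0% for eIF3a and 45.5% to 52.9% for eIF3b, and median widths of 150 to 238, 135.5 to 210.5 and 179.5 to 180 bases. Median width was 298.5 bases for METTL16 and 225.5 for eIF3b with a fold of at least 4, and 270, 261.75 and 270 for METTL16, eIF3a and eIF3b with the 5000 peaks. By genomic span it was 762.25 for METTL16 and 310.25 for eIF3b. For eIF3b it was 180.25 without PSMC3IP, 194.5 with the strongest peak per gene and 179 without peaks with Alu pieces, moves that exceed only its small spread.

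Some differences between proteins turned. With a fold of at least 4, the share of genes with a peak was -1.35 points for METTL16 minus eIF3a and -2.70 for METTL16 minus eIF3b. When each replicate was left out, METTL16 minus eIF3a ranged from 9.46 to 52.7, METTL16 minus eIF3b from -4.05 to 25.7 and eIF3a minus eIF3b from -41.9 to 1.35, the change of sign coming without METTL16 replicate 2 and without eIF3a replicate 2. In median width, leaving out replicates gave -23 to 65 bases for METTL16 minus eIF3a, -29.75 to 58.25 for METTL16 minus eIF3b and -44.25 to 30.75 for eIF3a minus eIF3b. METTL16 minus eIF3b was 0 bases with the 5000 peaks and with the strongest peak per gene. The differences in coding share kept their sign under every alternative run. The cause of these changes was not tested.

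Replicate numbers are shared between proteins in the labels. Over the 37 genes, deviations of presence from the protein mean had correlations of 0.187, -0.0318 and 0.0479 for the 3 pairs of proteins. A correlation across genes cannot show a shift common to a whole list, so whether lists deviated together by number is not decided. With the number as a block, the differences were unchanged at 31.1, 10.8 and -20.3 points for the share with a peak, 44.5, 19.4 and -25.1 points for the coding share, and 21, 14.25 and -6.75 bases for width, and the exact sign-flip p was 0.500 or 1.00, where 2 pairs cannot go below 0.500.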
